A study of Drosophila melanogaster with 6 samples.

Results

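The transcriptome described here is that of control heads: adult heads of flies that carried the pan-neuronal driver elav-gal4 and no UAS transgene. It was read from the 3 elav-gal4 control arrays among the 6 Drosophila genome arrays of the series, and the other 3 arrays were not analysed here. Every probe set other than the array's own controls was a member, which left 13966 of 14010, and each was ranked by its mean log2 signal after the arrays were divided by their 2% trimmed means. By the labels, the heads came from a mixture of elav-gal4 males and elav-gal4/+ females, the progeny of elav-gal4 mothers and w1118 fathers; the study's methods write the genotype as elav-gal4/+; +/+. Cultures were kept at 25°C under a daily schedule with 12 h of light and 12 h of dark, and adults were frozen at ZT6, that is, 6 h into the light phase. Heads of both sexes were pooled, and the sources used here do not give the number or the age of the flies. The molecule is labelled polyA RNA, although the extraction text and the methods name total RNA. By the series' description, 1 RNA sample of these heads was labeled and hybridized 3 times, on 3 different days, so every spread given here is one of labeling and hybridization and holds no variation between flies; array and day cannot be told apart.

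An adult fly head holds a pair of compound eyes, the brain, antennae and mouthparts covered with chemosensory hairs, muscle, cuticle and a fat body that surrounds the brain and secretes proteins into the hemolymph. Photoreceptors use a rhodopsin, a Gq protein and phospholipase C to open the TRP and TRPL channels, and arrestins end the response. Head neurons also run the circadian clock, in which CLK and CYC activate the per and tim genes, whose products inhibit them. The driver elav-gal4 places the yeast activator GAL4 under regulatory sequences of elav, an RNA-binding protein gene of neurons. GAL4 switches on UAS transgenes, of which these flies had none.

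The arrays differed in overall brightness. Trimmed mean signals were 150 on array 1, 85 on array 2 and 100 on array 3, and between 6708 (48.0%) and 8555 (61.3%) of the probe sets lay above a signal of 40 on an array. The scaled log2 signals of any 2 arrays correlated at 0.918 to 0.927 (Pearson's r over 13966 probe sets, a description, since probe sets share the arrays). A signal also depends on the probes: where a gene had several probe sets, they differed by a median of 3.70-fold. Ranks and percentiles therefore order signals, not transcript amounts. In a whole head, fewer cells of a type and less RNA per cell cannot be told apart, and precision is limited to what 3 arrays allow.

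Among probe sets with a single gene symbol, the strongest signals in the control head came from Nplp2 and from yolk protein, arrestin and ribosomal protein genes. Yp1, a yolk protein gene transcribed in female fat body, ranked first on every array, with signals of 12039, 13409 and 13837 on arrays 1, 2 and 3. Its relative Yp2 read 10981, 11727 and 12117, and Yp3 read 10525, 11044 and 11699. Nplp2, a neuropeptide-like precursor, stood among the yolk protein genes at 11606, 10689 and 11466. The 4 genes took ranks 1 to 5 on each array, and the order of Nplp2 against Yp2 and against Yp3 changed from array to array. Probe sets with no symbol took ranks 5 and 6 by the mean. Among named genes the photoreceptor arrestin gene Arr2 was next, at rank 7, with 9466, 8071 and 9058, and Arr1 had 8727, 7652 and 7274. Between them lay CG2233, a gene named only by its CG number, with 9992, 7997 and 8136.

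Of the 20 brightest probe sets with a single gene symbol, 10 were for cytosolic ribosomal proteins, led by RpS20 (8040, 6548 and 6598) and RpS7 (7868, 6379 and 6770). The others were the 7 genes above, CG6503 (7915, 6593 and 7048), the myosin light chain gene Mlc2 (6751, 5776 and 6274) and sesB, which encodes the mitochondrial adenine nucleotide carrier. The signal of sesB was 8036, 4693 and 6372, so its rank moved between 17 and 57. Only 4 of the 19 neighbouring pairs in this list kept their order on all 3 arrays, so the order below the first few genes is not resolved by these arrays.

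**Figure D1:**
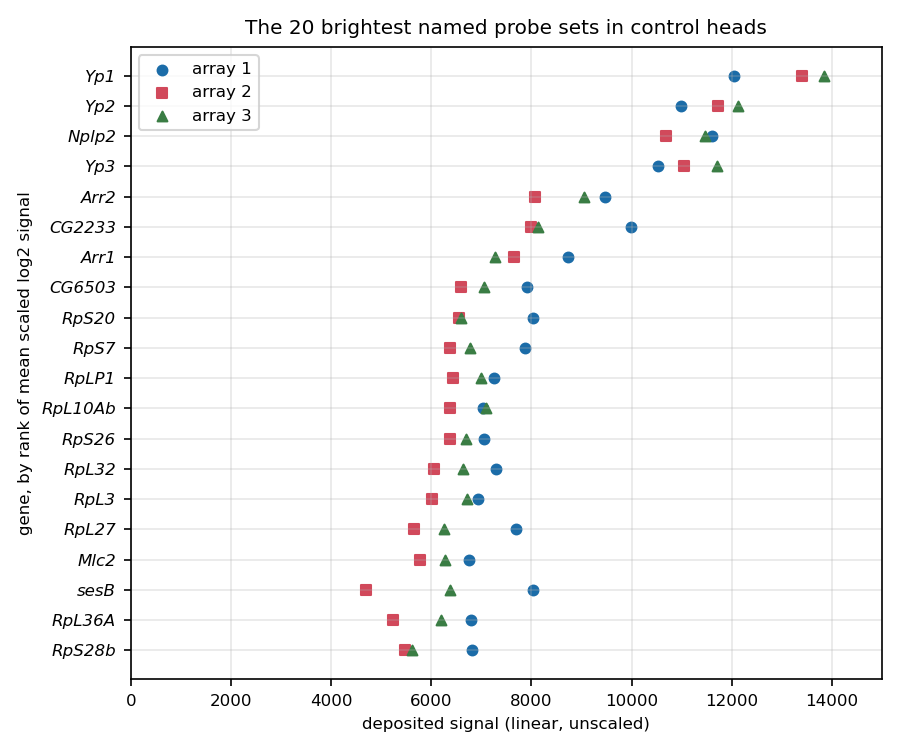
Deposited signal (x axis, linear and unscaled) of the 20 brightest probe sets with a single gene symbol (y axis, by rank), with a point for each of the 3 control arrays. Yp1, Yp2, Nplp2 and Yp3 sit at 10525 and above on every array, apart from the other 16.

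The brightest signals varied less between arrays than the arrays' overall brightness did. The ratio of array 1 to array 2 had a median of 1.15 over the 20 brightest probe sets, against 1.69 over all probe sets above 40 on every array and 1.76 for the trimmed means. The 3 yolk protein genes were lower on array 1 than on arrays 2 and 3 as deposited, although array 1 was the brightest array. Dividing by the trimmed mean therefore spread the brightest values, and Yp1 had an SD of 0.52 on the scaled log2 scale (n = 3 arrays).

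The 100 brightest probe sets had mean signals of 4076 to 13095 and held 20.7%, 26.4% and 24.8% of the summed signal on arrays 1, 2 and 3. The annotation gave 54 of them a single symbol, 1 several symbols and 45 none. Of the 54, 21 were cytosolic ribosomal proteins and 6 had only a CG number. Among the rest were the peptide precursor Nplp3, the translation factor eIF4A, the ubiquitin genes Ubi-p5E and Ubi-p63E, the glycolytic enzyme Gapdh1, the lens protein retinin of the eye, the chaperone Hsc70-4 and the odorant-binding protein Obp99c. The Ubi-p5E probe set has the suffix that Affymetrix gives to sets whose probes match a family of sequences. Its cross-hybridization was not tested.

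Next, 33 gene lists with 1172 genes were set among the 10844 genes that had a single-symbol probe set. A gene's percentile is the share of these genes with a lower mean log2 signal over their probe sets. A gene was counted as above 40 on all arrays if any of its probe sets was, which held for 5213 genes (48.1%). It was counted as above 40 on no array if every probe set was, which held for 3624 genes (33.4%). From each list described, the 4 brightest and 2 dimmest genes were candidates to be named; other genes were picked for their role with their values in view.

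**Figure D2:**
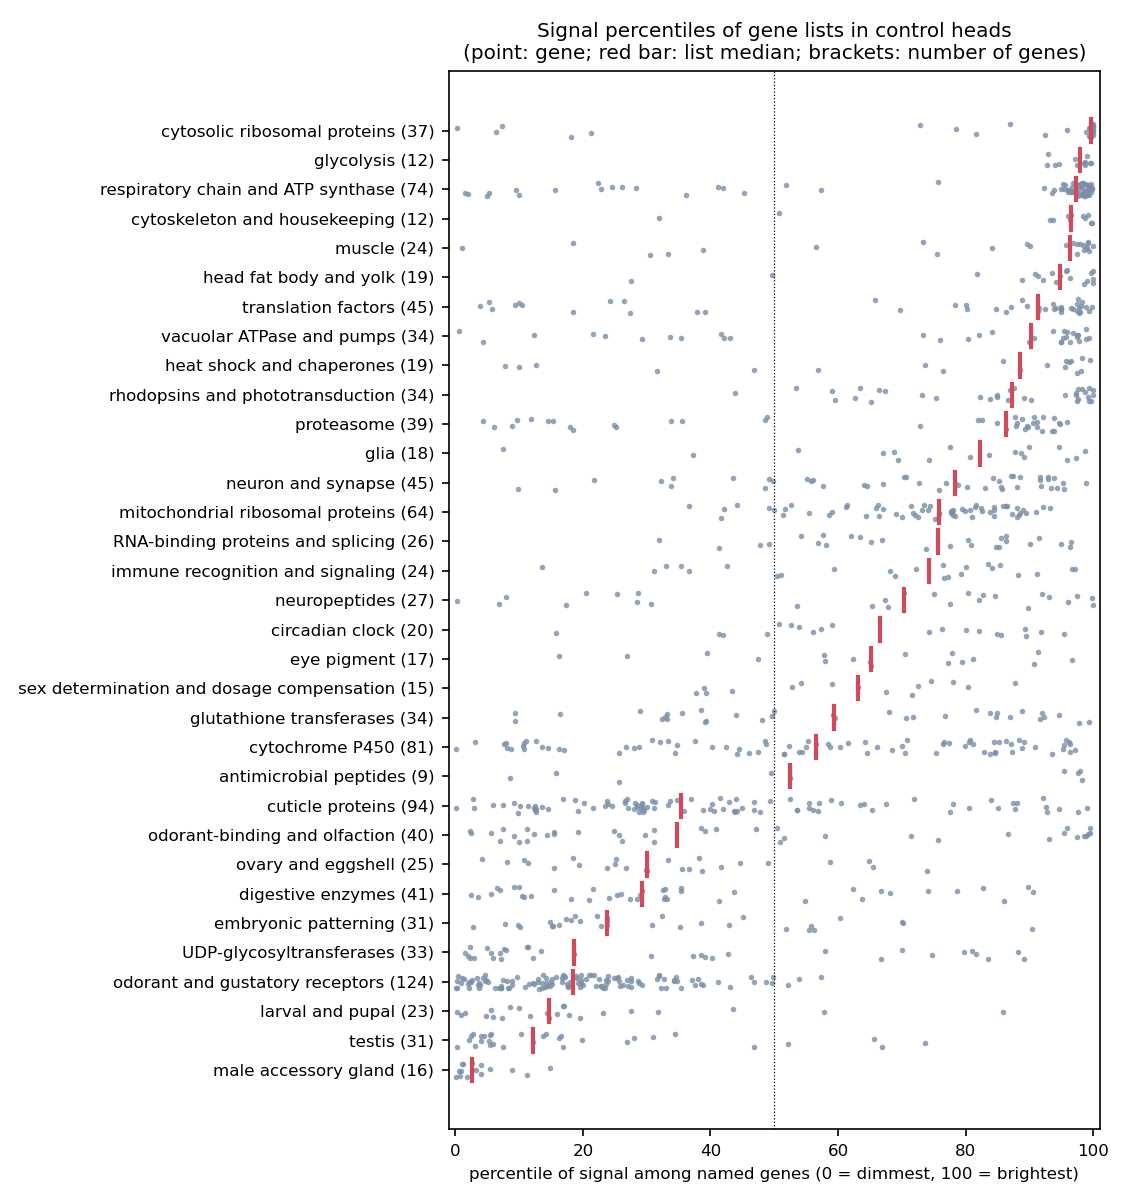
Signal percentile of each gene (points) in 33 gene lists (y axis, ordered by list median, red bar), where the x axis runs from the dimmest to the brightest of 10844 named genes. Medians run between 2.61 for the male accessory gland and 99.6 for cytosolic ribosomal proteins, and the chemosensory list of odorant-binding proteins spans nearly the whole axis.

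The eye was read strongly. All 6 named eye markers were above 40 on every array, and so were 32 of 34 genes of an eye list (94.1%, against 48.1% of all named genes). Beside phototransduction genes, that list holds others of the eye, such as the transcription factor genes eya, so and gl, the lens gene retinin and Hdc. Rh7 was its only named rhodopsin. The list's median percentile was 87.3 ± 1.8 (SD over the 3 arrays ranked singly), and 15 of its genes were among the brightest 10%. After the arrestins, the lens protein gene retinin read 4843, 4319 and 4484. The genes of the light response channels, trp (4384, 2182 and 2568) and trpl (3661, 2319 and 2967), lay close together, at percentile 99.3 each. Gbeta76C, the beta subunit of the eye's Gq protein, read 2900, 2298 and 2671. The scaffold inaD (1237, 850.2 and 886) and the protein kinase C inaC (1379, 718 and 831), which sit in the same signaling complex as TRP, were alike at percentile 97.3 each. The photoreceptor surface protein chaoptin, from chp, read 2338, 1116 and 1241.

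Other steps of the visual cascade were dimmer. Galphaq, the G protein alpha subunit, read 129, 61.3 and 70.7, and rdgB, a phosphatidylinositol transfer protein, read 56.7, 68.5 and 67.4. The 3 probe sets of rdgA, a diacylglycerol kinase, disagreed: 1 read 160.4, 138 and 174, another 45.2, 70.9 and 152, and the third 19.3, 44.3 and 40.1. At the low end stood inaE, a diacylglycerol lipase with 5 probe sets, at percentile 53.4, and the rhodopsin Rh7 at 28.8, 41.8 and 38. The rhodopsin genes ninaE, Rh3 and Rh4 and the phospholipase gene norpA were not named by the annotation used here. Hdc, which makes histamine, the photoreceptor transmitter, read 534 on array 1 but 102 and 112 on arrays 2 and 3.

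Eye pigment genes were less bright, with a median percentile of 65.1 ± 3.6 and 14 of 17 above 40 on every array. Pu, the GTP cyclohydrolase of the pteridine pathway, led with 1315, 592 and 672, followed by se (409, 223 and 328) and pr (409, 246 and 245) of the same pathway and ry, xanthine dehydrogenase (181, 125 and 148). The dimmest were car (26.0, 6.8 and 25.8), which acts in trafficking to pigment granules, and, below it, cn, the kynurenine hydroxylase of brown pigment, which was under 40 on every array.

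**Figure D3:**
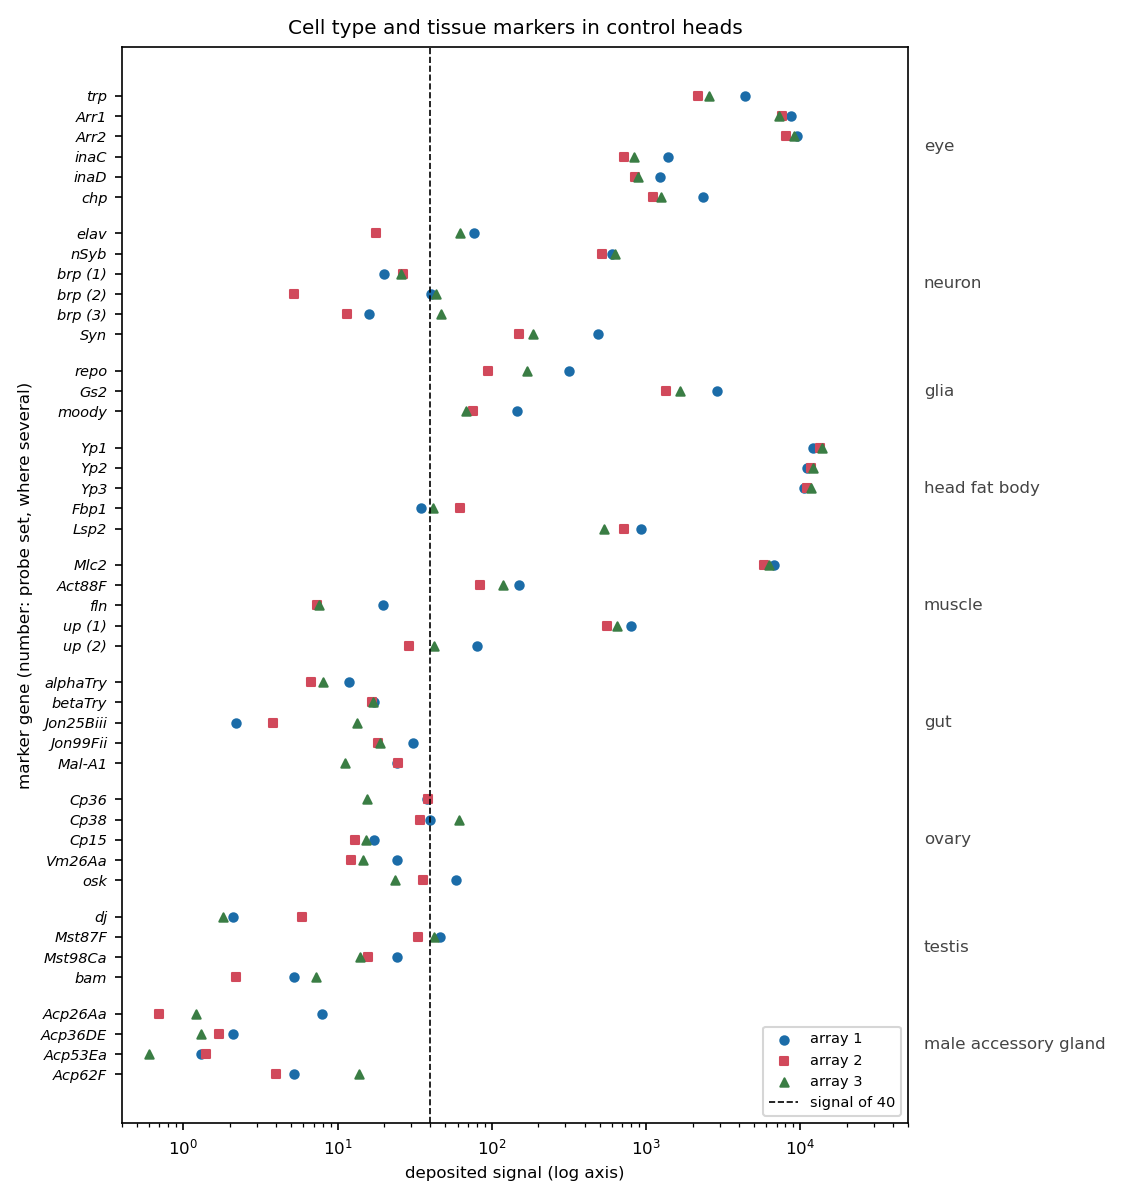
Deposited signal (x axis, log) of the cell type and tissue markers that the annotation names (y axis), with a point per array and a dashed line at 40; genes with several probe sets are numbered. All eye and glia markers lie right of the line on every array, whereas no gut, ovary, testis or accessory gland marker does.

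Neuronal genes were detected, but elav itself was not a strong signal. Of 45 neuron and synapse genes, 34 were above 40 on all arrays (75.6%), and the median percentile was 78.4 ± 1.3. The neuronal sodium pump subunit nrv3 led with 2997, 1640 and 1986. Synaptic vesicle release genes followed: nSyb, the vesicle SNARE, at 602, 515 and 625, the priming factor unc-13 at 880.0, 382 and 535, and the chaperone Csp at 820, 298 and 469. Transmitter enzymes were present too, with Gad1, for GABA, at 491, 337 and 409, Ddc, for dopamine and serotonin, at 659, 312 and 414, ple, tyrosine hydroxylase, at 358, 152 and 220, and ChAT, choline acetyltransferase, at 347, 139 and 177 for the brighter of its probe sets.

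The neuron markers were split, with 2 of the 4 named ones above 40 on every array. These were nSyb and Syn, the vesicle protein synapsin (489, 150.3 and 185). The pan-neuronal gene elav, whose regulatory sequences run the driver, read 76.5, 17.8 and 62.0, on both sides of 40, at percentile 49.2. The 3 probe sets of brp, an active zone scaffold, had mean signals between 24.1 and 29.7, and none was above 40 on every array. Among channels, the sodium channel para read 24.4, 17.8 and 28.5 and the dimmest gene of the list, the potassium channel eag, read 6.1, 3.4 and 10.5. Next to it was nAChRalpha1, an acetylcholine receptor subunit, at 3.9, 8.9 and 18.8, while the related nAChRalpha2 read 240, 102 and 115.

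Glial genes had a median percentile of 82.2 ± 3.2, and 16 of 18 were above 40 on all arrays. Gs2, the glutamine synthetase that recycles glutamate, read 2898, 1347 and 1659. The transporter gene Eaat2 read 1436, 611 and 964, and the brighter probe set of the sugar transporter Tret1-1 read 2873, 1945 and 2066. The glial transcription factor repo read 315, 93.7 and 168, and moody, a receptor of the blood-brain barrier, read 146, 75 and 68.1. In contrast gcm, the embryonic switch to glial fate, was at 7.2, 7.9 and 2.2, the lowest of the list, and axo, a neurexin relative of glia, had 3 probe sets with array 1 signals of 77.4, 32.7 and 9.4. The pump subunit nrv2 varied widely between arrays, at 702, 111 and 232.

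Genes of the circadian clock gave middling signals at ZT6: the median percentile of 20 genes was 66.6 ± 2.1, and 14 were above 40 on every array (70.0%). The brightest was cry, the blue-light receptor of the clock, at 764, 500 and 535. Both transcription factors of the second feedback loop were high, vri at 446, 226 and 355 and Pdp1 at 436, 168 and 234. The kinase Doubletime, from dco, which phosphorylates PER, read 356, 193 and 232. The gene lark, whose RNA-binding protein the study overexpressed in other flies, read 224, 156 and 192 at its own dosage, percentile 85.5.

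The core loop itself was dimmer, apart from the brightest probe set of tim, which was as bright as vri and Pdp1. The gene per read 74.7, 52.2 and 63.8, above 40 on every array, and cyc read 120.3, 80.1 and 132. Its partner Clk fell under 40 on array 2, with 66.1, 36.5 and 53.2. The 3 probe sets of tim differed most: 595, 238 and 252 for 1, 162, 78.6 and 109 for another, and 4.4, 6.1 and 5.0 for the third. The pigment-dispersing factor gene Pdf, the peptide of the ventral clock neurons, read 202, 106 and 176, and its receptor Pdfr 63.7, 46.9 and 48.3. All 4 probe sets of timeout, the tim relative, stayed between 2.6 and 29.2, and Fmr1, an RNA-binding protein gene, was at 40.1, 37.6 and 22.7. Since all flies were frozen at a single time, no rhythm can be read from these values.

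**Figure D4:**
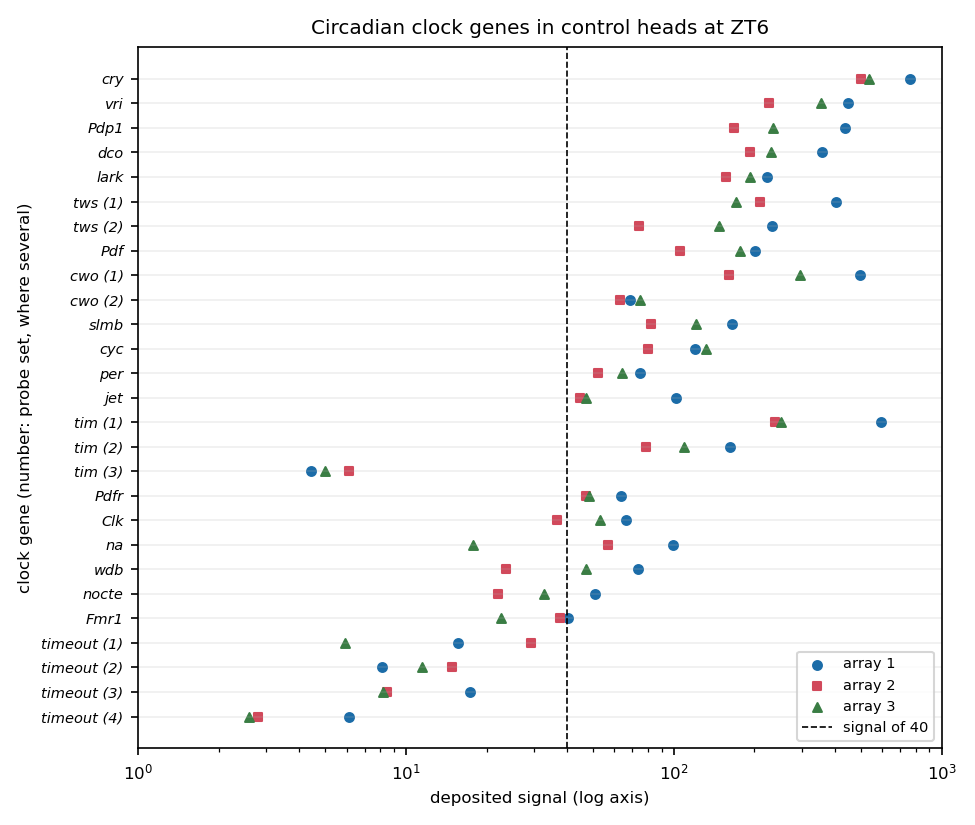
Deposited signal (x axis, log) of the 27 probe sets of 20 clock genes (y axis, by gene percentile), with a point per array and a dashed line at 40. The points of cry, vri, Pdp1, dco and lark all lie above 150, per lies just above the line, and the 3 probe sets of tim are far apart.

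Neuropeptide genes covered the whole range. After Nplp2, Nplp3 read 6310, 4766 and 4942, Nplp4 read 1314, 999 and 831, and Ms, which encodes myosuppressin, read 1047, 519 and 510. The insulin-like peptide Ilp2, made by a small cluster of brain cells, read 607, 266 and 358, and AstC, an allatostatin, read 396, 306 and 307. Of 27 genes, 16 were above 40 on all arrays (59.3%, against 48.1% of all named genes). Another 9 were above 40 on no array, a share close to the 33.4% of all named genes. The median percentile was 70.3 ± 2.0. The dimmest were amn, a peptide gene named for a memory mutant, at 0.8, 1.4 and 1.7, and the insulin-like Ilp7 at 8.0, 2.8 and 4.8. The hormone gene Akh of the corpora cardiaca also stayed low, at 15.2, 25.2 and 9.3.

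Chemosensory genes were divided by class: a few carriers were very bright and nearly all receptors were dim. Odorant-binding proteins are small proteins secreted around sensory neurons. Obp99c read 5216, 3568 and 3749, Obp56d read 4540, 3095 and 3648, Obp19d read 3388, 2038 and 2440, and Obp56e read 3135, 1643 and 2359. The list of 40 genes had 9 among the brightest 10% but 20 above 40 on no array, against 33.4% of all named genes. On every array 13 were above 40 (32.5%, against 48.1% of all named genes). The list's median percentile was only 34.8 ± 4.8. Its dimmest members were Obp58c (4.4, 2.0 and 2.3) and Obp58b (4.0, 2.2 and 2.5).

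Of 124 odorant, gustatory and ionotropic receptor genes, 108 were above 40 on no array and 3 on every array (2.42%, against 48.1% of all named genes). The 3 were Ir75b (79.0, 45.3 and 59.4), Ir68b (53.9, 60 and 44.8) and Or46a, whose brighter probe set read 69.3, 50.2 and 41.1; Or7a and Or22c were next in order of percentile and were under 40 on array 2. The lowest were Or67b (1.5, 0.7 and 1.3) and Ir52d (2.1, 1.7 and 0.8). Even Orco, the coreceptor shared by most odorant receptors, was at 14.4, 11.0 and 8.0. Apart from coreceptors such as Orco, such receptors are known to be used by few neurons each. At this sensitivity a signal under 40 does not show that the transcript is absent.

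The head fat body was prominent beyond the yolk proteins. Of 19 genes of the list, 17 were above 40 on every array, and the median percentile was 94.8 ± 0.17. The secreted satiety peptide gene fit, expressed in female fat body, read 6451, 3843 and 4572. The fatty acid synthase gene FASN1 read 3575, 1812 and 2125, and the brighter probe set of apolpp, the lipophorin precursor that carries lipids in the hemolymph, read 6774, 3586 and 4435. Lsp2, a storage protein, read 931, 719 and 537. The fat body genes Fbp1 (34.8, 62.1 and 41.3) and Fbp2 (12.1, 23.2 and 17.7), known from late larvae, were the dimmest. The yolk proteins and fit are female products, and these heads came from both sexes in proportions that the sources used here do not give.

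Muscle genes had a median percentile of 96.3 ± 0.48, with 20 of 24 above 40 on every array. After Mlc2, the calcium pump SERCA read 4203, 2032 and 2699, the Z-disc protein gene Zasp66 read 3496, 2538 and 2009, and Act87E, a muscle actin, read 3505, 1859 and 2648. Markers of indirect flight muscle, which lies in the thorax, were far lower: fln read 19.6, 7.4 and 7.6, Act88F read 149, 83.6 and 118, and TpnC4 read 1.3, 1.6 and 4.2, the lowest of the list. Actin genes are near-identical in their coding sequence, and how far the probe sets of Act87E, Act88F and Act79B cross-hybridize was not tested.

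Genes of protein synthesis and energy metabolism were bright. Of 37 cytosolic ribosomal protein genes, 32 were above 40 on every array (86.5%) at a median percentile of 99.6 ± 0.028; the other 5 were above 40 on no array, down to RpL10Aa at 4.6, 0.5 and 1.0. Mitochondrial ribosomal proteins were as often above 40 on every array (56 of 64, 87.5%) but lower in the ranking, at a median of 75.8 ± 0.28. The brightest of these was mRpS7, at 529, 327 and 369. All 12 genes of glycolysis were above 40 on every array and among the brightest 10%, between Gapdh1 (4824, 3894 and 4653) and Hex-A, a hexokinase (701, 207 and 338).

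The 74 genes of the respiratory chain and ATP synthase had a median percentile of 97.3 ± 0.27. Beside sesB, the complex III subunit UQCR-Q read 6646, 4982 and 4655, the ATP synthase alpha subunit blw read 5489, 3779 and 4524, and COX4, of cytochrome oxidase, read 4955, 3823 and 4479. At the other end, 15 members were above 40 on no array, including COX7AL (9.1, 2.2 and 0.6) and COX7C (3.3, 2.2 and 2.3).

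Other machinery that every cell uses was also bright. Of 45 translation factor genes 34 were above 40 on every array, at a median percentile of 91.4 ± 0.79. The helicase eIF4A read 6014, 5063 and 5983 and eEF5 read 4762, 1934 and 2484, while eIF4E4, another form of the cap-binding protein, read 3.4, 1.4 and 13.8 and eIF4H2 read 4.0, 2.6 and 4.0. All 12 cytoskeleton and housekeeping genes had a probe set above 40 on every array. The Ubi-p5E probe set, whose suffix marks probes that match a family of sequences, read 6756, 4698 and 6118. The lowest of the 12 by percentile was betaTub60D, a tubulin with 1 probe set at 141, 138 and 92.9 and another at 6.6, 2.7 and 3.1.

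Proteasome genes were lower, at a median of 86.4 ± 0.90 with 26 of 39 above 40 on every array. Rpn5, of the regulatory lid, read 808, 526 and 626, and Prosbeta7, of the core, read 734, 455 and 406. The lowest was Prosbeta4R1, at 4.0, 2.0 and 6.3. Chaperones had a median of 88.5 ± 0.94 and 14 of 19 above 40 on every array. The constitutive Hsc70-4 read 5962, 2837 and 4145, and the small heat shock gene Hsp26 read 890, 703 and 699.9, whereas Hsp60B stayed at 6.0, 6.3 and 3.6.

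The vacuolar ATPase, which acidifies synaptic vesicles and other compartments, and related pumps had a median of 90.3 ± 1.8, with 23 of 34 genes above 40 on every array. The subunit Vha26 read 3057, 1491 and 2178 and Vha55 read 1601, 841 and 1099, and the lowest were Vha14-2 (4.2, 2.5 and 4.9) and Vha68-3 (2.9, 1.2 and 1.3). Among 26 genes for RNA-binding and splicing proteins, the class that includes lark, 22 were above 40 on every array at a median of 75.7 ± 7.1. The splicing factor B52 read 1192, 605 and 670, and the hnRNP genes Hrb27C (1011, 479 and 754) and Hrb98DE (741, 428 and 454) followed. The lowest of that list was shep, whose probe sets read 117, 69 and 131, 17.9, 10 and 16.5, and 9.2, 5.9 and 5.9.

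Defense and detoxification genes were mixed. Of 9 antimicrobial peptide genes, 4 were among the brightest 10%: Drsl5 (1942, 1079 and 1202), DptB (1626, 1039 and 1037), Mtk (1526, 995 and 926) and Drs (924, 452 and 482). The labels name no infection. The cecropin gene CecB (19.5, 10.1 and 3.4) and Drsl6 (8.1, 4.9 and 4.1) were the dimmest, and the median of 52.4 ± 7.4 had the widest spread of all lists. Among 81 cytochrome P450 genes 43 were above 40 on all arrays (53.1%, near the 48.1% of all named genes), led by Cyp6d5 (1195, 699 and 860.3) and down to Cyp316a1 (1.1, 0.6 and 1.1). GstD1, a glutathione transferase, read 3641, 2343 and 2637. In that family 18 of 34 genes were above 40 on every array, down to GstE10 at 5.6, 5.5 and 6.2, and the median was 59.4 ± 3.8. The UDP-glycosyltransferases were dimmer, with 11 of 33 above 40 on every array, a median of 18.6 ± 1.4 and Ugt49B1 highest at 344, 179.8 and 244. Immune recognition and signaling genes had a median of 74.3 ± 2.8 and 17 of 24 above 40 on every array. The serpin gene nec, an inhibitor of the Toll pathway, read 1009, 789 and 949.9, and the peptidoglycan recognition gene PGRP-SB1 read 874, 739 and 816, whereas PGRP-SB2 read 29.4, 2.7 and 5.8.

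Genes of sex determination and dosage compensation, some of them spliced differently in males and females, were read without regard to splice form. Sxl had probe sets at 294, 199 and 245 and at 224, 176 and 206, dsx read 150.1, 74.8 and 118, and tra read 171, 68.5 and 82.2. Of 15 such genes 10 were above 40 on every array, at a median percentile of 63.2 ± 2.1.

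Cuticle protein genes were mostly dim in the adult head. Of 94 genes, 27 were above 40 on all arrays (28.7%, against 48.1% of all named genes). On no array there were 37, against 33.4% of all named genes, and the median percentile was 35.3 ± 1.5. Exceptions were Acp1, an adult cuticle protein gene, at 3903, 2063 and 1945, and Cpr72Ec, also on the eye list, at 1434, 909 and 1005. The lowest was Cpr67Fa2, at 0.5, 1.0 and 1.5.

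Genes on the lists for organs outside the head and for earlier stages were mostly dim. For scale, 48.1% of all named genes were above 40 on every array and 33.4% on none. All 16 male accessory gland genes were above 40 on no array, with a median percentile of 2.61 ± 1.1. The highest of them, Acp26Ab, reached 14.8, 14.1 and 2.7, and the lowest, Acp53Ea, read 1.3, 1.4 and 0.6. The list holds Ebp and EbpII, named for the ejaculatory bulb, but not EbpIII, which shares their name and read 5452, 4725 and 4215, at rank 77 of all probe sets; it was added here after its values were seen. In the testis list 3 of 31 genes were above 40 on every array (9.68%), namely Mst85C (126, 86.7 and 110.0), 1 of the probe sets of bol, a regulator of meiosis (332, 183 and 341), and Mst84Da (62.2, 48.4 and 40.3). The sperm tail gene dj was at 2.1, 5.9 and 1.8.

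The ovary and eggshell list had 4 of 25 genes above 40 on every array (16%, against 48.1% of all named genes). These were the chorion gene Cp18 (128, 106 and 90.9), the vitelline membrane gene Vm34Ca (145, 68.6 and 50.3), exu (110, 61.6 and 69.4) and grk (86.9, 58.6 and 48.1). Digestive enzymes had 10 of 41 (24.4%), led by LysB, a lysozyme (345, 239 and 281). All 5 named gut markers stayed under 40 on every array, with trypsins alphaTry at 11.9, 6.7 and 8.0 and betaTry at 17.3, 16.6 and 16.9. Of the embryonic patterning genes 8 of 31 (25.8%) were above 40 on all arrays, with hry, a transcriptional repressor, highest (426, 189.6 and 259.7) and tll lowest (3.3, 2.0 and 3.9). The larval and pupal list had 2 of 23 (8.70%): ImpL2, an insulin-binding protein, read 217, 161 and 202, and the salivary glue gene Sgs8 read 62.3, 53.3 and 66.4.

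Across the array, 6259 probe sets (44.8%) were above 40 on all 3 arrays, 2663 (19.1%) on 1 or 2 and 5044 (36.1%) on none. Of the 1404 that were above 40 on a single array, 1083 (77.1%) were so on array 1, the brightest array. A raw signal of 40 corresponded to 0.267 trimmed means on array 1 and to 0.470 on array 2. Just inside the threshold were Su(z)12, a chromatin repressor (126, 40.1 and 56.0), and mth, a receptor gene (78.0, 50.6 and 40.1). Just outside were BI-1, an inhibitor of cell death (40, 19.8 and 27.4), and RapGAP1, a GTPase regulator (40, 5.9 and 23.4). By gene, 3624 of 10844 (33.4%) had every probe set above 40 on no array.

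By decile, bright signals were more precise than dim ones, although the yolk protein genes at the very top spread more (SD 0.52 for Yp1). In the brightest decile of probe sets, with a median signal of 619, the median SD of the scaled log2 signal was 0.17 (n = 3 arrays), against 0.69 in the dimmest decile, with a median signal of 4.33. The SD was highest in the next 2 deciles up, at 0.78 and 0.77, and was lower in each decile above those. In the dimmest decile 64.7% of the probe sets differed over 2-fold between arrays, so no order among them can be read. Named genes were also spread unevenly: genes known only by a CG number made up 23.9% of the single-symbol probe sets in the brightest decile, against 52.4% in the dimmest and 39.5% in all. Probe sets with no symbol were most frequent at the top, at 15.0% of the brightest decile and 11.2% of the dimmest.

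**Figure D5:**
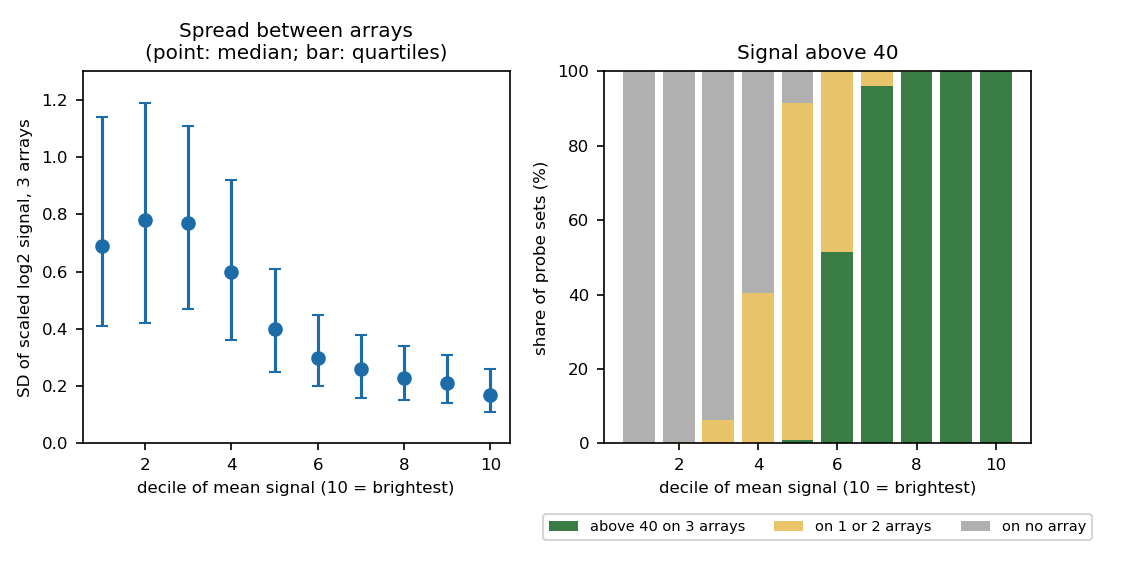
Left, median and quartiles of the SD of scaled log2 signal over the 3 arrays (y axis) in deciles of mean signal (x axis, 10 is brightest). Right, the share of probe sets (y axis, %) above 40 on 3 arrays, on 1 or 2, and on none: 0.860% of the fifth decile, 51.4% of the sixth and 96.1% of the seventh were above 40 on all 3.

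Of the 6259 probe sets above 40 on every array, 289 (4.62%) differed over 2-fold between their highest and lowest scaled signal, and 4 over 4-fold. The 4 were CG13069 (48.3, 149 and 73.5), rdgA (45.2, 70.9 and 152), CG9631 (58.4, 148 and 91.9) and Ccp84Ad, a cuticle protein gene (145, 342 and 207), all lowest on array 1. Next came genes that were highest on array 1: nrv2, the blood cell and fat body factor srp (357, 61.4 and 110), Hdc, smash (248, 45.9 and 62.5), CG31248 (247, 46.1 and 94.8) and the chromatin remodeler dom (346, 66.4 and 135). In all, 124 of the 289 were highest on array 1, 102 on array 2 and 63 on array 3. Without array 1, 66 of the 6305 probe sets above 40 on arrays 2 and 3 differed over 2-fold between these arrays. A range over 2 arrays cannot exceed that over 3.

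Finally, 1209 genes had several probe sets, and in 862 of them (71.3%) the brightest and dimmest differed over 2-fold. The median difference was 1.89 on the log2 scale. All probe sets were above 40 on every array in 218 genes, some in 575 and none in 416. The widest gap, 10.62 on the log2 scale, was in CG34347, where 1 probe set read 5493, 4269 and 5683 and the other 3 had mean signals of 3.37 to 7.63. The gap was next largest in the immunoglobulin-domain gene dpr3 (8.67), Tango8 (8.46), the reticulon gene Rtnl1 (8.03) and sls, which encodes a giant muscle protein (7.72). In CG34347, dpr3 and Tango8 the brightest probe set carried the suffix that Affymetrix gives to sets whose probes match a family of sequences. Which transcripts each probe set reads was not examined, and a single dim probe set does not show that its gene is silent.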

How the data were processed

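RNA of control heads was hybridized to Affymetrix Drosophila genome arrays. The values that the authors deposited are signal intensity on a linear scale. MAS5 is the tool named in the submitters' processing notes, with no version, and the sources used here do not give its settings. The study's methods describe GCRMA values and a filter at 40, so the deposited intensity values are not those of the study's tests. Of 14010 probe sets, 44 array controls were dropped; the annotation gave 12443 of the other 13966 a single symbol, 327 several and 1196 none. Of the 12443, 12394 had a gene identifier in the RefSeq table (Release 6), and 0 had another symbol there.

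Each array was divided by its 2% trimmed mean, log2 values were averaged over the 3 arrays, and genes with several probe sets were given the mean of their probe sets. The count above 40 used the deposited intensity. Ratios of 3′ to 5′ control signals were 2.88 ± 0.118 for eIF-4a, 3.27 ± 0.672 for GAPDH and 2.42 ± 0.857 for actin (SD, n = 3 arrays). The actin ratio was 3.41 on array 1, 1.89 on array 2 and 1.95 on array 3. No groups were compared and no test was run. Gene lists were matched by symbol, symbol pattern or older name; entries caught by a pattern but of another class (Prosap, Ser7, Cox10, Cox17, Sdhaf3 and Acp65Aa) were left out, and the Mst57D genes were moved to the accessory gland list. Named genes are the 20 brightest with a single symbol, up to 4 highest and 2 lowest of each list described, the cell type markers, the 10 widest between arrays, the 5 with the farthest probe sets, and others picked with their values in view. Members and lists were chosen with earlier results of these data known. Alternatives of threshold, scaling, averaging, probe set choice, offset and left-out array were tried. Code was tested on simulated data, with Python 3.11.15, numpy 2.4.6, pandas 2.3.3, scipy 1.17.1 and matplotlib 3.10.9.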

Additional observations from a re-analysis of the deposited data

How the results depend on the processing

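The count of probe sets above the threshold on all arrays was 8316 with a threshold of 20 and 3050 with 100, against 6259 with 40. On no array it was 2927 with a threshold of 20 and 8611 with 100 (5044 with 40). With the threshold of 40 and an array left out, the count above it on all remaining arrays was 6305 without array 1, 7169 without array 2 and 6562 without array 3. The count over 2-fold between arrays was 153 after 16 was added to every signal, 54 among probe sets above 100, and 66 to 204 with an array left out, against 289; it was 66 without array 1, and the cause was not tested. The median difference between probe sets of a gene was 1.80 with linear means and 1.88 to 1.99 with an array left out (1.89). Between 98 and 100 of the 100 brightest probe sets were shared under every alternative of scaling, averaging or left-out array. Of 33 list medians, 23 were above percentile 50, or 22 where the antimicrobial peptide list fell below it (49.6 without array 2, and with the brightest probe set of a gene); it was at 57.6 without array 1. With the brightest probe set, the lists that moved by over 5 were RNA-binding proteins (83.7, against 75.7), neuron (83.6, against 78.4) and clock (72.7, against 66.6). No paired analysis was possible because 1 group was described and no test was run. Signals under 40 had a median SD of 0.67 on the log2 scale where no array was above 40, which limits any order among dim genes.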

Other observations

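Genes that lie side by side were sometimes bright together. The gene order was taken from RefSeq, and 5 runs of at least 4 neighbouring measured genes were among the brightest 10%. The longest held 6 genes of the Bomanin family of secreted immune peptides: BomS4 (2354, 1251 and 1493 on arrays 1, 2 and 3), BomBc2 (2138, 1600 and 1744), BomS2 (1843, 577 and 1036), BomT2 (2704, 1478 and 1577), BomS5 (2152, 1437 and 1463) and BomS6 (6491, 4022 and 4416). The 6 genes are related in sequence, and cross-hybridization between their probe sets was not tested. Another run held muc, CG5958, CG5973 and the carotenoid uptake receptor santa-maria (736, 518 and 562). Over all 10769 pairs of neighbours the percentiles correlated weakly, with Pearson's r of 0.147 and Spearman's rho of 0.150 across genes, which share arrays and are not independent.

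Some ribosomal, respiratory and proteasome genes have a paralog whose symbol is the same with L, T, R or -like added. These pairs were chosen after the values were seen. In all 26 pairs the paralog was dimmer, and the paralogs had a median percentile of 18.1. Of the paralogs, 22 were above 40 on no array, which held for 33.4% of all named genes. The base gene of every pair was above 40 on every array, at a median of 94.7 over the pairs. ND-51, Prosalpha4, Prosbeta2 and Prosbeta4 have several paralogs here and were counted in each of their pairs. COX4L had a mean signal of 5.43, against 4419 for COX4, and Prosalpha4T2 had 6.03, against 208 for Prosalpha4. The exceptions above 40 on every array were RpLP0-like, at a mean of 106 (5209 for RpLP0), and ATPsynbetaL, at 115 (904 for ATPsynbeta). Each paralog was read by its own probes, so these are differences in signal.

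Chosen after its value was seen, the adenylyl cyclase gene rut, known from memory mutants, was among the 100 brightest probe sets, at 5149, 4155 and 4265. This probe set has the suffix for probes that match a family of sequences, and the other probe set of rut read 152, 93 and 122.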
